A study of Mus musculus with 6 samples.

Results

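The thin filament of the cardiac sarcomere is described here through 7 genes: the sarcomeric actins *Actc1* and *Acta1*, the troponin subunits *Tnnt2*, *Tnni3*, *Tnni1* and *Tnnc1*, and the tropomyosin *Tpm1*. They were found by their symbols among the 17145 genes of the count table, and all 7 were listed. With a minimum of 10 molecules summed over the libraries, 6 of the 7 could be tested, and *Tnni1* was left out of the test with a single molecule. They are all the rows with these symbols, and the rule used no measured value, although the set was drawn up with earlier results of these data known.

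Both groups came from FS6KD hearts, where *Ndufs6*, which encodes a part of respiratory complex I, is knocked down by a gene trap that acts most strongly in this organ. Sections of fresh-frozen tissue were stained for the stress transcription factor Atf3, and photo-isolation chemistry, which amplifies cDNA from ultraviolet-irradiated areas alone, separated areas of high Atf3 from areas of low Atf3 inside clusters of Atf3-positive cells. Each group had 3 libraries, made by CEL-seq2, a 3′ end method in which a unique molecular identifier (UMI) lets each cDNA molecule be counted once. The comparison asks how transcripts of cardiomyocytes with much Atf3 differ from those with little. The labels give *Ndufs6* knockdown, heart, cardiomyocytes and female for every library, so the knockdown was shared by both groups, and neither a wild-type heart nor an area without Atf3 was among these libraries. The mice were of mixed C57BL/6J and 129/Ola background. Their age, and how many cells lay in an irradiated area, are not given in the sources used here for these libraries.

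In cardiac muscle the thin filament is a double strand of actin with tropomyosin lying along it and a troponin complex at regular intervals. Troponin C binds calcium, troponin I holds the filament in its inhibited state, and troponin T anchors the complex to tropomyosin, so that calcium release lets myosin heads reach actin. Several subunits have paired isoforms. In rodents, cardiac actin and cardiac troponin I prevail in the adult ventricle, whereas skeletal actin and slow skeletal troponin I belong to the fetal heart, and skeletal actin can return in a stressed heart.

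The libraries held from 81117 to 210588 UMIs, and from 6936 to 11971 genes had at least 1. Levels are given as CPM, UMI counts put on a common library size by TMM, a method that scales libraries through the bulk of their genes. A single UMI was worth from 4.66 to 13.6 CPM, and a gene with none could have had up to 14.0 to 40.9 CPM (the level of 3 UMIs, counting error only). The Y-linked *Ddx3y* and *Eif2s3y* had 16 UMIs together in Atf3 high replicate 2, which is labelled female and lacked *Xist*, whereas 0 or 1 Y-linked UMI and from 3 to 26 *Xist* UMIs were found in the other 5 libraries. Values without this library are given for the tested thin filament genes, for shares, sums and ratios within the set, and for some genes outside it. Which of the other results it moves most was not determined. The mitochondrially encoded share of the UMIs ran from 16.9% to 21.2% for Atf3 high against 21.9% to 22.6% for Atf3 low, and the part of this in the results below was not tested. The median gene differed by 0.11 on the log2 scale between the groups, and by 0.31 when libraries were scaled by size alone.

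The start regions of both actin genes are shown because these genes stood at opposite ends of the thin filament set, and because each holds a CArG box, the motif recognized by serum response factor. The windows run from 250 bases before to 50 bases after the start annotated by RefSeq on GRCm38.p6, 5′ to 3′ on the strand of the gene, with the CArG box in capitals. The *Actc1* window is chr2:114052826-114053125 and that of *Acta1* is chr8:123894726-123895025, both read from the minus strand.
Actc1: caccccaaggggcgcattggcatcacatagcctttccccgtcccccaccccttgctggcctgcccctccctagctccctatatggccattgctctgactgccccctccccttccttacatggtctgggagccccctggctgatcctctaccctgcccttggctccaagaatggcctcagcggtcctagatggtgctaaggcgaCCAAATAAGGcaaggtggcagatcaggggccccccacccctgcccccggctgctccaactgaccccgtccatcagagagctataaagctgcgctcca
Acta1: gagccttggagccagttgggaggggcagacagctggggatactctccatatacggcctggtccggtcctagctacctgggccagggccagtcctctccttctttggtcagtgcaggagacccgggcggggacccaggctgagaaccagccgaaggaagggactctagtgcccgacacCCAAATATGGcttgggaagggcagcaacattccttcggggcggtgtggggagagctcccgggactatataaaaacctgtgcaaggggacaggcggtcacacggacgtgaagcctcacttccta
Counted from the annotated start as base 1, with the base before it as −1, the box lay from −47 to −38 in *Actc1* and from −73 to −64 in *Acta1*. GENCODE, the source of the gene positions below, begins these genes at other bases, chr2:114053548 and chr8:123894751. The first of these lies outside the *Actc1* window. All distances here are thus from the RefSeq start alone. A CArG box was found on either strand in 535 of 32817 start windows (1.63%), and in 2 of the 9 windows of the 7 thin filament genes, those of the actins. The cyclic AMP response element TGACGTCA, which Atf3 is known to bind, was in 588 windows (1.79%) and in none of the 9. Its shorter relative TGANTCA, where N is any base, was in 2564 windows (7.81%) and again in none of the 9. The TEAD motif CATTCC was in 4811 windows (14.7%) and in 4 of the 9, with 1 each for *Acta1*, *Tnnt2*, *Tnnc1* and *Tpm1*. TATAAA was in 4470 windows (13.6%) and in both actin windows, from −7 to −2 in *Acta1* and from 34 to 39 in *Actc1*, downstream of the annotated start. These are matches of letters in these windows and no measure of binding.

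Cardiac actin was the thin filament gene that differed most between the groups. *Actc1* (ENSMUSG00000068614, chr2:114047282-114053548, minus strand) encodes the main actin of the adult cardiac thin filament. Its level was 4827, 2414 and 5338 CPM in the Atf3 high libraries and 11024, 7074 and 9751 CPM in the Atf3 low libraries, in the order of replicates 1, 2 and 3. The groups did not overlap: the highest of the Atf3 high libraries was still under the lowest of Atf3 low, and Atf3 high replicate 2 was the lowest of the 6. The mean was 4193 ± 1562 CPM in Atf3 high and 9283 ± 2016 CPM in Atf3 low (SD, n = 3), a log2 fold change of −1.14 (SE 0.318, 95% interval −1.78 to −0.50) or a 2.21-fold lower level (1.42 to 3.44). By edgeR's quasi-likelihood test the unadjusted p was 0.000822, which put *Actc1* at rank 17 of 7665 genes, and the adjusted p was 0.364, so the gene was not called. DESeq2 gave −1.18 with an adjusted p of 0.0375, past the threshold. Without Atf3 high replicate 2 the edgeR difference was −0.88 (adjusted p = 0.929). Less RNA of a gene in an area can come from fewer cells that make it or from less RNA in each cell, and the 2 cannot be told apart in these libraries.

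**Figure D1:**
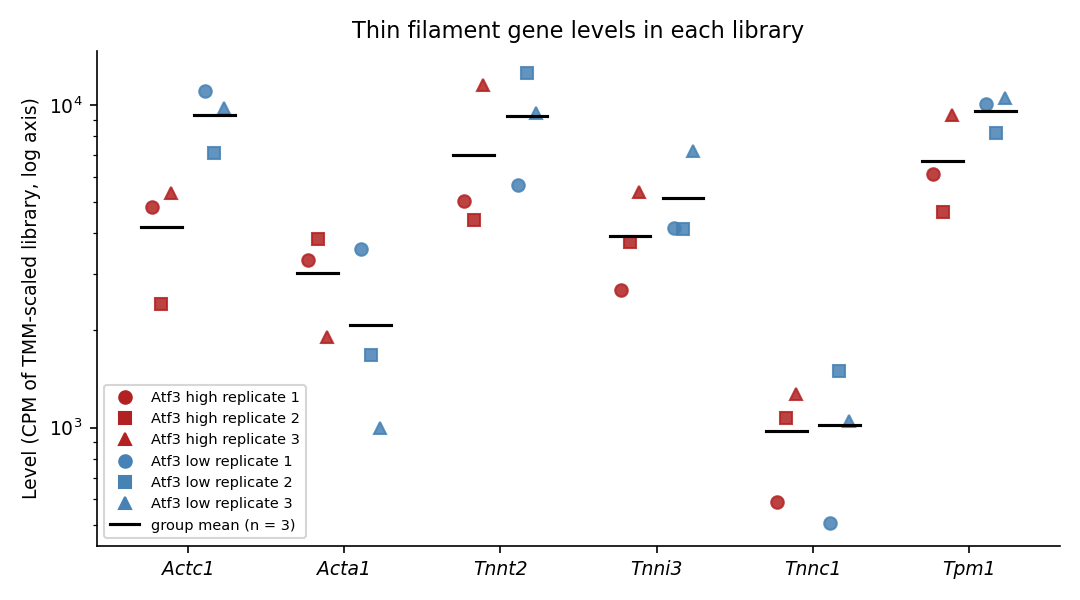
Level of each thin filament gene in each library, in CPM of the TMM-scaled library on a log axis, with Atf3 high in red, Atf3 low in blue, a symbol for each replicate number and a bar at the group mean (n = 3). *Actc1* is the gene whose groups do not overlap, with 2414 to 5338 CPM in Atf3 high against 7074 to 11024 CPM in Atf3 low.

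Skeletal actin did not follow cardiac actin. *Acta1* (ENSMUSG00000031972, chr8:123891769-123894751, minus strand) encodes the actin of skeletal muscle, which the heart also makes at a lower level. Its level was 3313, 3850 and 1905 CPM in Atf3 high and 3571, 1677 and 994 CPM in Atf3 low. The groups overlapped, since Atf3 low replicate 1 was higher than 2 of the 3 Atf3 high libraries. The mean was 3023 ± 1004 CPM against 2081 ± 1335 CPM (SD, n = 3), a log2 fold change of 0.53 (SE 0.370, 95% interval −0.22 to 1.28, edgeR adjusted p = 0.965). This difference rested on single libraries: it was 1.12 without Atf3 low replicate 1, 0.16 without Atf3 low replicate 3, 0.35 without Atf3 low replicate 2 and 0.31 without Atf3 high replicate 2, and in none of these did it pass an adjusted p of 0.05.

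Set against each other within a library, where library size cancels, the actins had a proportion that did not overlap between the groups. *Actc1* is part of this proportion and had already been seen not to overlap, so it is no separate result. How often the proportions of other gene pairs do not overlap was not computed. *Acta1* made up 40.7% of the UMIs of both actins in Atf3 high replicate 1 (Wilson 95% interval 38.3 to 43.1), 61.5% in replicate 2 (57.2 to 65.6) and 26.3% in replicate 3 (24.2 to 28.5). In Atf3 low the share was 24.5% in replicate 1 (22.7 to 26.3), 19.2% in replicate 2 (16.9 to 21.7) and 9.25% in replicate 3 (7.42 to 11.5). Each Atf3 high library had a larger share of skeletal actin than each Atf3 low library. The intervals of Atf3 high replicate 3 and Atf3 low replicate 1 overlapped, however, and whether these neighbours differed beyond counting error was not tested. Atf3 high replicate 2 was the single library with more *Acta1* than *Actc1*, 319 against 200 UMIs.

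The mean share was 42.8% ± 17.7 for Atf3 high against 17.6% ± 7.72 for Atf3 low (SD, n = 3), a difference of 25.2 percentage points with an exact two-sided permutation p of 0.1, the smallest that 3 libraries against 3 allow. Any groups of 3 that do not overlap give this p, so it adds nothing to the lack of overlap. On the log2 scale the *Acta1* to *Actc1* ratio differed by 1.88. Without Atf3 high replicate 2 the share differed by 15.9 points, and without Atf3 high replicate 3 it was 33.5 points. Pooling the UMIs of each group gave 17.5 points. The 2 shallowest libraries, Atf3 high replicate 2 with 81117 UMIs and Atf3 low replicate 3 with 81917, had the largest and the smallest share. The intervals cover counting error only.

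**Figure D2:**
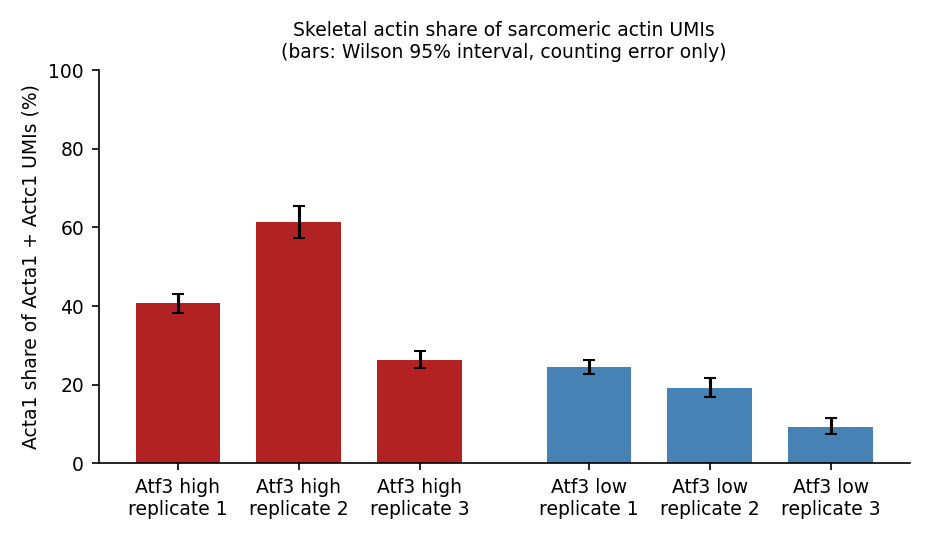
*Acta1* as a percent of *Acta1* plus *Actc1* UMIs in each library, with Atf3 high in red, Atf3 low in blue and the Wilson 95% interval as error bar. The Atf3 high bars run from 26.3% to 61.5% and the Atf3 low bars from 9.25% to 24.5%.

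The sequences of both actin transcripts are alike, which bears on how 3′ tags were assigned. Aligned by BLAST, the *Actc1* and *Acta1* transcripts shared 86.3% of bases over 1132 aligned bases, and their last 500 bases shared 87.1% over 256. This best alignment of the last 500 bases stopped at base 314 in *Actc1* and at base 258 in *Acta1*, so it did not reach either 3′ end. No transcript of another gene matched any of the 7 genes at 95% identity over 200 bases. How reads that map to more than 1 place were counted is not given in the sources used here, and its part in the actin share was not tested. Opposite-strand genes that overlap *Actc1* and *Acta1* (A530058N18Rik and Gm20388) were not listed in the count table.

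Troponin T, the subunit that ties the complex to tropomyosin, varied more between libraries of a group than between the groups. *Tnnt2* (ENSMUSG00000026414, chr1:135836354-135852260, plus strand) stood at 5020, 4393 and 11524 CPM in Atf3 high and at 5647, 12539 and 9465 CPM in Atf3 low. Atf3 high replicate 3 lay among the Atf3 low libraries, and Atf3 low replicate 1 lay near the lower 2 of Atf3 high. The means were 6979 ± 3948 and 9217 ± 3453 CPM (SD, n = 3), with a log2 fold change of −0.40 (SE 0.333, 95% interval −1.07 to 0.27, edgeR adjusted p = 0.996). Leaving out Atf3 high replicate 3 moved the difference to −0.98 (adjusted p = 0.466) and leaving out Atf3 low replicate 1 to −0.70, whereas without Atf3 low replicate 2 it was −0.16 and without Atf3 high replicate 2 it was −0.17.

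Troponin I of the adult heart, the inhibitory subunit, was also not called. *Tnni3* (ENSMUSG00000035458, chr7:4518305-4524229, minus strand) stood at 2668, 3765 and 5380 CPM in Atf3 high and at 4164, 4113 and 7177 CPM in Atf3 low. Atf3 low replicate 3 was the highest and Atf3 high replicate 1 the lowest, and the groups overlapped through Atf3 high replicate 3. The means were 3938 ± 1364 and 5152 ± 1755 CPM (SD, n = 3), with a log2 fold change of −0.39 (SE 0.325, 95% interval −1.04 to 0.27, edgeR adjusted p = 0.996). Leaving out a library placed it between −0.68, with Atf3 high replicate 3 left out, and −0.09, with Atf3 low replicate 3 left out, and it was −0.37 with Atf3 high replicate 2 left out. *Dnaaf3*, which overlaps *Tnni3* on the same strand, had 4 UMIs in all.

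The fetal partner of *Tnni3* was almost undetected. *Tnni1* (ENSMUSG00000026418, chr1:135779434-135810989, plus strand) encodes the slow skeletal troponin I, and its only UMI lay in Atf3 high replicate 2, the library with the Y-linked UMIs. There it was 1 of 313 troponin I UMIs, a share of 0.319% (Wilson 95% interval 0.0564 to 1.79). In the remaining Atf3 high libraries it was 0 of 525 and 0 of 1155 UMIs, which allows a share of up to 0.571% and 0.260%. In Atf3 low it was 0 of 618, 0 of 493 and 0 of 527, which allows up to 0.485%, 0.609% and 0.569%. With a UMI in 1 library alone, every split of the libraries gives a difference of the same size, so a permutation test of this share carries no information, and no difference was detectable at this depth. Across the same 6 libraries the *Acta1* share of actin ran from 9.25% to 61.5%, while that of *Tnni1* ran from 0 to 0.319%.

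Troponin C was the scarcest of the tested thin filament genes. *Tnnc1* (ENSMUSG00000091898, chr14:31208312-31211729, plus strand), the calcium sensor of cardiac and slow muscle, stood at 589, 1074 and 1267 CPM in Atf3 high and at 505, 1502 and 1049 CPM in Atf3 low. Replicate 1 was the lowest library of both groups, and the groups overlapped throughout. The means were 977 ± 349 and 1019 ± 499 CPM (SD, n = 3), and the log2 fold change of −0.06 (SE 0.393, 95% interval −0.85 to 0.73, edgeR adjusted p = 0.996) changed sign with the scaling, to 0.12 by library size alone. Without Atf3 high replicate 2 it was −0.14. These values rest on 75 to 272 UMIs a library. *Nisch*, on the opposite strand, overlaps the gene and had 117 UMIs, and whether counting used strand is not given in the sources used here.

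Tropomyosin, the coiled coil that covers the myosin sites on actin, was among the most abundant of the set. *Tpm1* (ENSMUSG00000032366, chr9:67022590-67049406, minus strand) stood at 6097, 4671 and 9283 CPM in Atf3 high and at 10061, 8167 and 10501 CPM in Atf3 low. Both of the lowest values were Atf3 high, and Atf3 high replicate 3 overlapped Atf3 low replicate 2. The means were 6684 ± 2362 and 9576 ± 1240 CPM (SD, n = 3), with a log2 fold change of −0.52 (SE 0.302, 95% interval −1.13 to 0.09, edgeR adjusted p = 0.964). Without Atf3 high replicate 3 it was −0.84 (adjusted p = 0.536) and without Atf3 high replicate 2 it was −0.33. Splice forms of *Tpm1* and *Tnnt2* were not separated, since the table has 1 value a gene.

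Counted over the tested genes, 5 of 6 had a lower and 1 of 6 a higher level in Atf3 high by the sign of the fit, the median log2 fold change being −0.39, beside 3432 lower and 4233 higher among all 7665 genes with a median of 0.11. At an edgeR adjusted p under 0.05 none of the 6 was called, where 7 genes (0.0913%) were called over the whole table. At an unadjusted p under 0.05, 1 of the 6 (*Actc1*) was lower, where 2.24% of all genes were, and 0 were higher, where 3.55% were. The groups did not overlap and were lower in Atf3 high for 1 of the 6, again *Actc1*, where 3.89% of all genes did so, and higher for 0, where 7.07% did so. Of all genes, 8.21% had a lower log2 fold change than *Actc1*, and 67.3% had a lower one than *Acta1*.

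**Figure D3:**
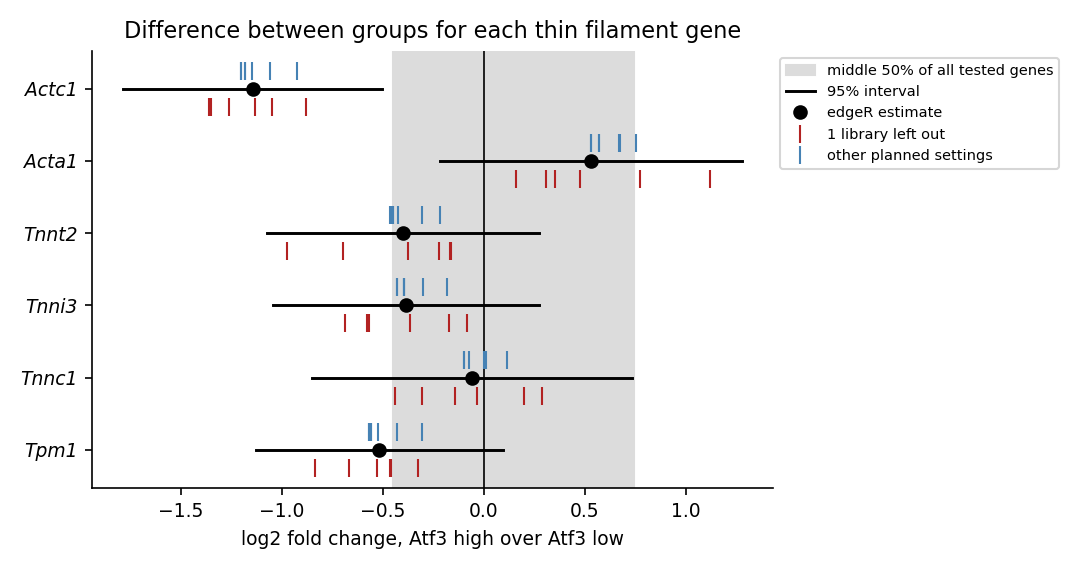
Log2 fold change of each tested thin filament gene, Atf3 high over Atf3 low, with the edgeR estimate as a point, its 95% interval as a line, the estimates with 1 library left out as red marks and those under other planned settings as blue marks. The interval of *Actc1* runs from −1.78 to −0.50 and those of the other 5 genes include 0, and the grey band holds the middle 50% of all tested genes.

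The sum of the thin filament set was lower on average in Atf3 high, and whether the groups overlapped depended on the scale. The 7 genes together held 2.40%, 2.06% and 3.54% of all UMIs in the Atf3 high libraries and 3.03%, 3.35% and 3.49% in the Atf3 low ones. On this scale Atf3 high replicate 3 had the largest share of the 6 libraries, and the other 2 Atf3 high libraries had the smallest. Of the TMM-scaled library, the scale of the levels above, the sum took 2.25%, 2.02% and 3.47% in Atf3 high against 3.50%, 3.51% and 3.89% in Atf3 low, so that the groups did not overlap, although Atf3 high replicate 3 and Atf3 low replicate 1 were nearly level. Of nuclear UMIs, Atf3 high replicate 3 took 4.26%, between the 3.88% of Atf3 low replicate 1 and the 4.29% and 4.51% of replicates 2 and 3. The mean share of all UMIs was 2.67% ± 0.774 for Atf3 high against 3.29% ± 0.238 for Atf3 low (SD, n = 3), described with no test since it sums genes of which 1 was already seen to differ. The difference was −0.623 percentage points of all UMIs, −0.970 of nuclear UMIs and −1.05 of the TMM-scaled library, and −0.321 of all UMIs without Atf3 high replicate 2.

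Within the set, the mean share of *Actc1* exceeded that of *Acta1* in both groups, by less in Atf3 high. The mean troponin and tropomyosin shares lay close together between the groups. Of the thin filament UMIs, *Actc1* held 16.3% ± 4.80 for Atf3 high against 25.6% ± 5.69 for Atf3 low (SD, n = 3 for this and the shares that follow). *Acta1* held 13.1% ± 6.94 against 5.85% ± 3.94. Without Atf3 high replicate 2 the Atf3 high means were 18.4% for *Actc1* and 10.1% for *Acta1* (n = 2). Single libraries of both groups overlapped for each actin in this measure. The other shares differed by less than their spread: *Tnnt2* held 25.8% against 25.4%, *Tpm1* 25.7% against 26.3%, *Tnni3* 15.3% against 14.0% and *Tnnc1* 3.86% against 2.81%.

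**Figure D4:**
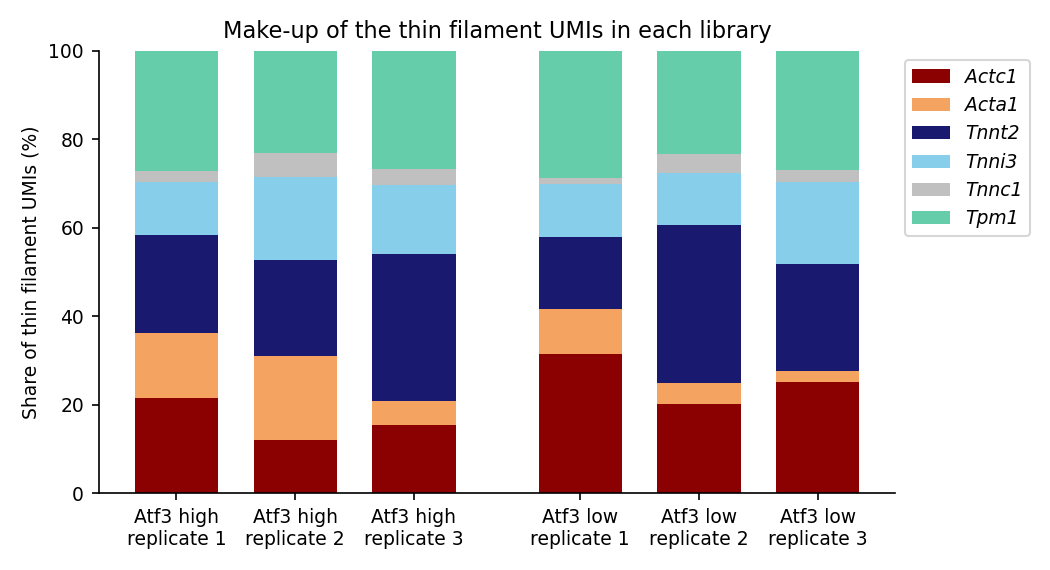
Share of the thin filament UMIs held by each gene in each library, in percent, with *Tnni1* (1 UMI) not drawn. *Actc1* in dark red averages 16.3% in Atf3 high and 25.6% in Atf3 low, and *Tpm1* in green averages 25.7% and 26.3%.

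Ratios between the genes, which do not depend on library size, were also read pair by pair. Of 15 pairs of tested genes, the log2 ratio of *Tnni3* to *Tpm1* varied least over the 6 libraries (SD 0.374), followed by *Actc1* to *Tpm1* (SD 0.417). The ratios that varied most were *Acta1* to *Tnnt2* (SD 1.36) and *Actc1* to *Acta1* (SD 1.35). The groups did not overlap for 2 pairs, both with *Actc1*: its log2 ratio to *Acta1* was lower in Atf3 high by 1.88, and its log2 ratio to *Tpm1* differed by −0.64, from a mean of −0.06 in Atf3 low to −0.70 in Atf3 high. These differences were −1.31 and −0.51 without Atf3 high replicate 2, and neither pair overlapped. How many pairs over all genes do not overlap was not computed. *Actc1* had already been seen not to overlap, so the count of 2 pairs adds no separate result. Measured against the sum of the other 5 tested genes in each library, a setting chosen after these values were seen, the log2 fold change was −0.84 for *Actc1* and 1.33 for *Acta1*. The exact permutation p was 0.2 for each. Each sum holds the other actin, so these 2 values are not independent.

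The order of the mean levels differed in the place of *Tnnt2*, first in Atf3 high and after *Tpm1* and *Actc1* in Atf3 low, and was otherwise the same. A 3′ end tag is counted once per molecule and is not scaled by transcript length, so the order below is one of UMIs, and differences in capture between transcripts were not tested. In Atf3 high the order from the top was *Tnnt2*, *Tpm1*, *Actc1*, *Tnni3*, *Acta1* and *Tnnc1*, and in Atf3 low it was *Tpm1*, *Actc1*, *Tnnt2*, *Tnni3*, *Acta1* and *Tnnc1*. In Atf3 high, *Tpm1* exceeded *Actc1* in 3 of 3 libraries, by 0.70 ± 0.320 on the log2 scale, and *Acta1* exceeded *Tnnc1* in 3 of 3, by 1.64 ± 0.967. The other neighbours there changed order between libraries: *Tnnt2* exceeded *Tpm1* in 1 of 3, *Actc1* exceeded *Tnni3* in 1 of 3 and *Tnni3* exceeded *Acta1* in 1 of 3. In Atf3 low, *Tnnt2* exceeded *Tnni3* and *Tnni3* exceeded *Acta1* in 3 of 3, by 0.82 ± 0.687 and 1.46 ± 1.32 on the log2 scale (SD, n = 3). *Tpm1* exceeded *Actc1*, *Actc1* exceeded *Tnnt2* and *Acta1* exceeded *Tnnc1* in 2 of 3 each, so these neighbours did not differ beyond their spread.

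Other genes of the contractile filaments were read from lists around the 7 genes. Of 11 related actins, troponins and tropomyosins, 5 could be tested, and 1 was lower and 4 were higher in Atf3 high by sign, with a median log2 fold change of 0.63 and none past the adjusted threshold. The cytoskeletal actin *Actb* had the most UMIs of them, with 0.21 (SE 0.426, edgeR adjusted p = 0.996). *Tpm3*, a tropomyosin of slow muscle and of the cytoskeleton, had 13, 53 and 28 UMIs in the Atf3 high libraries against 15, 17 and 7 in Atf3 low, and its log2 fold change was 1.20 (SE 0.593, unadjusted p = 0.0483, adjusted p = 0.854 by edgeR). Atf3 high replicate 2 had the most *Tpm3* UMIs of all, and the groups overlapped in level. Without that library the difference reversed to −0.21 (SE 0.639, adjusted p = 1.00). The fast skeletal partners *Tnnt3*, *Tnni2* and *Tnnc2* were not listed in the count table.

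Of 22 genes that set thin filament length or cap and cross-link actin, 15 could be tested, with 9 lower and 6 higher by sign, a median of −0.07 and none past the adjusted threshold. *Xirp2*, an actin-binding protein of the intercalated disc, had 575, 256 and 257 UMIs in the Atf3 high libraries against 192, 211 and 46 in Atf3 low. Atf3 high replicates 1 and 2 stood above the rest in level, and the groups overlapped. Its log2 fold change was 0.96 (SE 0.380, unadjusted p = 0.0155, adjusted p = 0.699 by edgeR), and 0.73 without Atf3 high replicate 2. *Actn2*, the Z-disc actinin that anchors thin filaments, differed by −0.20 (SE 0.379, adjusted p = 0.996).

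The thick filament partners were mostly lower by sign. Of 13 such genes 10 could be tested, with 9 lower and 1 higher and a median of −0.38, close to the median of −0.39 of the thin filament genes. *Myh6*, the fast cardiac myosin heavy chain, was the gene of these lists that passed the adjusted threshold and fell, with 392, 215 and 976 UMIs in Atf3 high against 1587, 1086 and 899 in Atf3 low and a log2 fold change of −1.81 (SE 0.322, edgeR adjusted p = 0.00512). The groups did not overlap in *Myh6* level. Its adjusted p was above 0.05 with 1 library left out in 4 of 6 cases, at 0.209 and 0.115 without Atf3 high replicate 1 or 2 and at 0.0508 and 0.273 without Atf3 low replicate 1 or 3, with log2 fold changes from −1.85 to −1.58. The ventricular light chain *Myl2* differed by −0.54 (SE 0.310, edgeR adjusted p = 0.964). *Myh7*, the heavy chain that the fetal rodent ventricle uses, made up 2.49%, 1.83% and 5.33% of the *Myh6* plus *Myh7* UMIs in the Atf3 high libraries and 0.688%, 1.81% and 0.443% in the Atf3 low ones, a share looked at after the actin share was known and given with no test. Atf3 high replicate 2 and Atf3 low replicate 2 were nearly level in it, on 4 and 20 *Myh7* UMIs.

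Of 18 regulators of cardiac and actin genes, 14 could be tested, with 10 lower and 4 higher by sign, a median of −1.02 and none past the adjusted threshold. Several of the 14 had only 11 to 35 UMIs over the 6 libraries, with SEs from 0.875 to 1.52, so this median is uncertain. At an unadjusted p under 0.05, 3 of the 14 were lower, where 2.24% of all genes were, and 0 were higher. *Fhl2*, a partner of serum response factor, had 97, 29 and 291 UMIs in the Atf3 high libraries against 232, 155 and 122 in Atf3 low, with a log2 fold change of −1.02 (SE 0.398, edgeR adjusted p = 0.679) and groups that overlapped. *Hopx*, a homeodomain protein that opposes serum response factor, had 25, 1 and 24 UMIs against 44, 26 and 10 and differed by −1.28 (SE 0.559, edgeR adjusted p = 0.792), with no overlap in level. *Myocd*, the myocardin co-activator of serum response factor, had 11 UMIs in all and differed by −3.30 (SE 1.52, edgeR adjusted p = 0.819), too few to place its level. *Fhl2* differed by −0.71 and *Hopx* by −0.89 without Atf3 high replicate 2. Without Atf3 high replicate 3, *Fhl2* differed by −1.83 and just passed the adjusted threshold (edgeR adjusted p = 0.0496). *Tead1*, which binds the TEAD motif, differed by −0.22 (SE 0.473, adjusted p = 0.996).

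**Figure D5:**
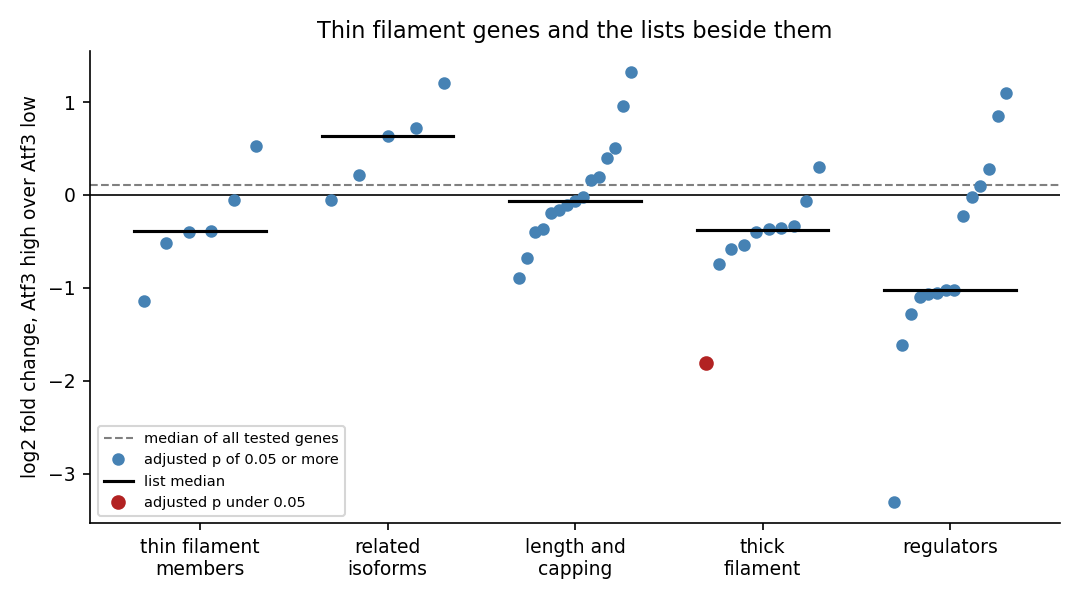
Log2 fold change, Atf3 high over Atf3 low, of each tested gene in the thin filament set and in the 4 lists beside it, with a bar at each median and a dashed line at the median of all tested genes (0.11). *Myh6* at −1.81 is the red point past the adjusted threshold, and the medians are −0.39 for the thin filament set, 0.63 for related isoforms, −0.07 for length and capping, −0.38 for the thick filament and −1.02 for regulators. Several of the regulators had few UMIs.

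The cell types under the light were read from marker genes. Of 6 cardiomyocyte markers 5 had UMIs (*Mb* was not listed), and their sum took 0.909% to 1.70% of an Atf3 high library and 1.37% to 2.01% of an Atf3 low library. All 5 were lower by sign in Atf3 high (median −0.72 on the log2 scale), and *Ryr2* (−0.85), *Pln* (−0.88) and *Atp2a2* (−0.72), which release calcium, restrain its uptake and pump it, were at an unadjusted p under 0.05 and adjusted p of 0.824, 0.841 and 0.810 by edgeR. That is 3 of 5 lower at this threshold, where 2.24% of all genes were. Of 7 fibroblast markers, 7 were higher by sign, and their sum took 0.112% to 0.552% of an Atf3 high library and 0.0476% to 0.223% of an Atf3 low library. Among these, *Col1a2* (1.33), *Col3a1* (1.09) and *Postn* (1.59) were at an unadjusted p under 0.05, 3 of 7 where 3.55% of all genes were higher at this threshold, and none passed the adjusted threshold of edgeR. Values of these markers without Atf3 high replicate 2 are not given. The part of either list in the thin filament values was not tested.

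Markers of other muscle were read beside *Acta1*, which had 2184 UMIs in all. Of 8 skeletal muscle markers, 7 were not listed in the count table and *Actn3* had 1 UMI. Smooth muscle markers took 0.0136% to 0.0437% of an Atf3 high library and 0.0110% to 0.0359% of an Atf3 low library. *Smtn* had the most UMIs of them, 114, and differed by −0.64 (SE 0.560, edgeR adjusted p = 0.996). *Acta2*, the smooth muscle actin, had 108 UMIs and differed the other way, by 0.72 (SE 0.633, edgeR adjusted p = 0.996). Of the 6 atrial markers, *Myl7*, *Sln*, *Mybphl* and *Bmp10* were not listed. *Myl4* had 1, 1 and 0 UMIs in Atf3 high against 0, 0 and 3 in Atf3 low, too few to test. *Nppa*, which marks atria and also the stressed ventricle, had 31, 63 and 24 UMIs in Atf3 high against 2, 4 and 5 in Atf3 low. It rose, with a log2 fold change of 3.22 (SE 0.685, edgeR adjusted p = 0.0345). The highest *Nppa* count and the highest *Acta1* share were both in Atf3 high replicate 2, without which the *Nppa* difference was 1.91 (adjusted p = 0.938). The edgeR adjusted p of *Nppa* was also above 0.05 with replicate 1 of Atf3 high left out (0.0660), with replicate 1, 2 or 3 of Atf3 low left out (0.463, 0.220 and 0.273) and with the stricter count filter of filterByExpr (0.228), and with limma-trend it was 0.214.

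Endothelial markers took 0.0974% to 0.131% of an Atf3 high library and 0.0708% to 0.111% of an Atf3 low library, with *Fabp4* the most abundant (−0.17, SE 0.383). Macrophage markers took from 0.0119% to 0.0325% and from 0.0192% to 0.0311%, with *Lyz2* the most abundant (−0.08, SE 0.537). Erythrocyte markers took from 0.00332% to 0.0160% and from 0 to 0.0111%. No gene of these 3 lists had an unadjusted p under 0.05 by edgeR.

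The genes whose pattern over the 6 libraries was nearest to that of each actin were found by the root mean square difference of log2 CPM, centred on each gene, among 445 genes with at least 200 UMIs. Nearest to *Actc1* were the mitochondrially encoded *mt-Nd3* (0.199), the lipoprotein lipase gene *Lpl* (0.203) and the mitochondrial pyruvate carrier gene *Mpc2* (0.216), where the median over all these genes was 0.741. None of these passed the adjusted threshold: *mt-Nd3* differed by −1.08 (SE 0.353), *Lpl* by −0.97 (SE 0.336) and *Mpc2* by −0.79 (SE 0.428), with edgeR adjusted p of 0.649, 0.649 and 0.927. Nearest to *Acta1* were the calcineurin regulator *Rcan1* (0.187), the ribosomal protein gene *Rpl17* (0.224) and *Gm6988* (0.225), where the median was 0.841. They differed by 0.77 (SE 0.471), 0.51 (SE 0.425) and 0.35 (SE 0.463), with edgeR adjusted p of 0.964, 0.996 and 0.996. These are likenesses over 6 libraries, 3 of each group, in which all genes of a library share its depth and scaling.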

How the data were processed

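The deposited table holds raw UMI counts, a column for each library and a row for each gene. The authors sequenced the CEL-seq2 libraries with paired-end reads on a NovaSeq6000 and mapped them to GRCm38 with HISAT2 (version 2.1.0). The submitters' processing notes also name UMI-tools (version 1.0.0) and featureCounts (version 1.6.4). The annotation release, UMI length and multi-mapping rule are not given in the sources used here. Libraries were grouped by their labels, and each was used as 1 replicate (biological per the methods). Chi-square per degree of freedom within groups was 3.55 to 5.07.

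Genes with at least 10 UMIs (7665) were TMM-normalized and tested with edgeR (version 4.0.16, R version 4.3.3), with Benjamini-Hochberg adjustment over all of them. Shares were compared by exact permutation over the 6 libraries (scipy version 1.17.1). In log2 ratios, 0.5 was added to counts for the isoform shares and for the pair ratios without Atf3 high replicate 2. The other log2 ratios had nothing added. DESeq2 (version 1.42.0), limma-trend (limma version 3.58.1, log2 of CPM plus 4), other filters and scalings, a replicate block and leaving out each library were alternatives. Transcripts were aligned by BLAST+ (version 2.17.0). Positions came from GENCODE vM21 and start windows from RefSeq, which held 9 for the 7 genes. Scripts were tested on simulated data. Besides the 7 genes, those named are each list's genes at an unadjusted p under 0.05 and its 2 of most UMIs, and the 3 nearest in pattern to each actin. For the endothelial, macrophage and erythrocyte markers, not all of the 2 with most UMIs are named. The 7 genes and the lists were chosen with earlier results of these data known. *Ddx3y*, *Eif2s3y*, *Xist* and *Myh7* were named after their values were seen.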

Additional observations from a re-analysis of the deposited data

Results flagged for a closer look

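A signal outside the comparison stood above the level in the other libraries: the Y-linked *Ddx3y* and *Eif2s3y* had 16 UMIs together in Atf3 high replicate 2, which is labelled female, where each of the other 5 libraries held 0 or 1. It was also the library with the lowest *Actc1* level (2414 CPM), the largest *Acta1* share (61.5%) and the only *Tnni1* UMI.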

How the results depend on the processing

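The 6 tested genes stayed on the same side of the adjusted threshold of 0.05 under each alternative run, except *Actc1*, which passed it with DESeq2 (log2 fold change −1.18, adjusted p = 0.0375) and with the replicate block in edgeR (−1.20, adjusted p = 0.00859). The number of thin filament genes called was thus 1 with each of these and 0 with every other. Outside the set, *Fhl2* passed the threshold with the replicate block in edgeR (−1.26, adjusted p = 0.0263) and without Atf3 high replicate 3 (−1.83, adjusted p = 0.0496). Over all genes, 24 were called with the block, 12 with DESeq2, 3 with limma-trend, 0 to 11 with 1 library left out and 7 in the reported analysis. The replicate numbers were not taken to pair the libraries: same-numbered libraries correlated in their deviations by 0.326, 0.0401 and 0.331 over 1024 genes, and Atf3 high replicate 2 correlated best with Atf3 low replicate 1 (0.0791). The libraries numbered 2 also differed in sex-linked UMIs. Atf3 high replicate 2 had 16 Y-linked and 0 *Xist* UMIs, and Atf3 low replicate 2 had 0 and 13. With the block, the *Acta1* share gave a sign-flip permutation p of 0.25, the smallest 3 pairs allow. *Tnnc1* reversed to 0.0034 with limma-trend, 0.12 by library size alone, 0.0124 without the filter on low counts, 0.0025 with the replicate block, 0.20 with Atf3 high replicate 1 left out and 0.29 with Atf3 low replicate 2 left out. Leaving out 1 library gave −1.36 to −0.88 for *Actc1* (adjusted p from 0.170 to 1.00), 0.16 to 1.12 for *Acta1*, −0.98 to −0.16 for *Tnnt2*, −0.68 to −0.09 for *Tnni3*, −0.44 to 0.29 for *Tnnc1*, −0.84 to −0.33 for *Tpm1*, 15.9 to 33.5 percentage points for the *Acta1* share and −1.06 to −0.32 points for the sum of the 7 genes. These kept their direction, except *Tnnc1*. No near-identical copy of the 7 genes was found, so summing over copies left their counts as they were. *Tnni1*, at 1 UMI, was below the count minimum. Values without Atf3 high replicate 2 for the shares and ratios within the set and for genes outside it were chosen after seeing the data.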
